A study of Mus musculus with 4 samples.

Results

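The T cell receptor complex and its proximal signalling machinery were described across Th17 cultures of 2 genotypes. The set was defined by gene symbol and role, with no threshold on measured values but with earlier results of these data known, as CD3 chains, coreceptors, costimulators, kinases, adaptors, effector enzymes and negative regulators. Its 45 names gave 44 genes of the 34745 in the deposited table, since Gads is a second name of Grap2. All 44 passed the filter on low counts, with 87 to 21719 counts per gene and library. The deposited table places 26 of the 44 in its T cell receptor signaling pathway. Th17 cells are the CD4+ T helper subset that makes interleukin 17. Naive CD4+ T cells from the spleen of C57BL/6 mice were cultured under Th17 polarizing conditions for 3 days, and total RNA was sequenced. WT mice (genotype wild type) gave libraries 13 and 15, and mice of genotype Setd2-CD4 cre gave libraries 22 and 24. Setd2 encodes the enzyme that trimethylates lysine 36 of histone H3, and Cre driven by Cd4 sequences acts in developing T cells, including those that become CD8 T cells. The allele structure of Setd2, whether WT mice carried Cre or an altered Setd2 allele, the age of the mice and the receptor stimulus used in culture are not given in the labels. The labels do not say that libraries came from separate animals, so p-values measure the spread between these samples only.

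The T cell receptor binds peptide through its alpha and beta chains, which have almost no cytoplasmic tail. Signals pass through the associated CD3 gamma, delta, epsilon and zeta chains, whose tyrosine motifs are phosphorylated by Lck, a kinase held at the coreceptor Cd4. Zap70 then docks on these motifs and phosphorylates the scaffolds Lat and Lcp2 (SLP-76), which gather Plcg1, Vav1 and other effectors. Phosphatases, ubiquitin ligases and diacylglycerol kinases limit the signal, and engagement of the receptor itself lowers the amount of receptor at the cell surface. In Th17 differentiation the strength of this signal is one of the inputs that shape cytokine output.

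The genes of the CD3 gamma, delta and epsilon chains lie next to each other on mouse chromosome 9. Cd3g (ENSMUSG00000002033, chr9:44969572-44980431, minus strand) and Cd3d (ENSMUSG00000032094, chr9:44981793-44987052, plus strand) are transcribed away from each other across a gap of 1361 bases, and Cd3e (ENSMUSG00000032093, chr9:44998743-45009590, minus strand) lies 11690 bases beyond Cd3d. Cd247, which encodes the zeta chain, is on chromosome 1 (ENSMUSG00000005763, chr1:165788681-165877277, plus strand). Coordinates are those of the deposited table, whose notes name GRCm38.p6. The promoter windows of the 4 chains are shown because 3 of them are neighbours and were lower together in Setd2-CD4 cre libraries. Each runs from 250 bases before the RefSeq start (GRCm38.p6) to 50 bases after it, on the strand of the gene, and capitals mark the letters GGAAGT, a core bound by ETS-family factors, or their reverse complement. The windows are chr9:44980382-44980681 on the minus strand for Cd3g, chr9:44981536-44981835 on the plus strand for Cd3d, chr9:45009562-45009861 on the minus strand for Cd3e and chr1:165788431-165788730 on the plus strand for Cd247.
Cd3g: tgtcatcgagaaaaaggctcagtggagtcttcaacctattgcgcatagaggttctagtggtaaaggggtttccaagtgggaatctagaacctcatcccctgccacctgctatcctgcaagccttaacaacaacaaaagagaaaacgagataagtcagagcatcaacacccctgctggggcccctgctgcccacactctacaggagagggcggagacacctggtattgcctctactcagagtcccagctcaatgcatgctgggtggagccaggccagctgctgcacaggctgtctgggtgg
Cd3d: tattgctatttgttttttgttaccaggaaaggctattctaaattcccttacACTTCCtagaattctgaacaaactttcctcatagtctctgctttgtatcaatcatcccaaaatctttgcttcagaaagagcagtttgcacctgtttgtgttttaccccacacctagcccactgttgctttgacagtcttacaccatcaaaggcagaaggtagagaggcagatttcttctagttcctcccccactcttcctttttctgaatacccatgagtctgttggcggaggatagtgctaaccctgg
Cd3e: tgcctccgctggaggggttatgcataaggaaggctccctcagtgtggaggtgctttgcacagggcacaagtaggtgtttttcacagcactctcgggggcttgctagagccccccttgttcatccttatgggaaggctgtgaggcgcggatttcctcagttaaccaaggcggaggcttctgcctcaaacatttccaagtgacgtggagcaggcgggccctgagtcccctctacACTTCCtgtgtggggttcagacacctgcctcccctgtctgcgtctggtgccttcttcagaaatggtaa
Cd247: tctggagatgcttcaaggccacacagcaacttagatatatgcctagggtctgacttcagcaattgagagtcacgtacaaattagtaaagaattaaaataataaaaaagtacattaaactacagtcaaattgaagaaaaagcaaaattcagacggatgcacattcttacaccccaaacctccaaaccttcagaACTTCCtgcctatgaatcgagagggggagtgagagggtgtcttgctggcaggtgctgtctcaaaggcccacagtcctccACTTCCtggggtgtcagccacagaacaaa

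The letters GGAAGT began 199 bases before the start in Cd3d, 18 bases before it in Cd3e, and 58 bases before and 22 bases into the transcript in Cd247. They were not in the 300 bases shown for Cd3g. The TATA letters TATAAA and the RUNX letters TGTGGT were in none of the 4 windows. Windows were found for 34 of the 44 members (50 windows, since some genes have several starts, whose windows can overlap). On both strands, GGAAGT was in 21 of these 50 windows (42.0%) and in 23.8% of all 32851 windows, TGTGGT in 6 (12%) and 16.8%, TATAAA in 5 (10.0%) and 13.6%, GGGCGG in 24 (48.0%) and 35.7%, and CANNTG in 38 (76%) and 72.3%. These are matches of letters and not measured binding.

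Libraries held 11007343 to 12518415 counts, and replicates of a genotype differed by more than counting noise. Setd2 itself, counted over the whole gene, stood at 183 and 176 CPM in libraries 13 and 15 of WT, against 144 and 153 CPM in 22 and 24 of Setd2-CD4 cre. The genotypes did not overlap for Setd2, and its log2 fold change of -0.28 (SE 0.10, adjusted p = 0.0748 by edgeR) missed the threshold of 0.05. Of the markers of CD4 Th17 cells, all 7 were detected, among them Cd4 and Il17a. Markers of B cells moved with genotype: 10 B cell genes, none at 0, summed to 49.4 and 47.2 CPM in WT and 339.9 and 186 CPM in Setd2-CD4 cre, and 10 of 10 were called higher. Over all genes tested, 16.2% were called higher. The 8 CD8 T and NK cell genes summed to 216 and 240.1 CPM in WT and 492 and 307 CPM in Setd2-CD4 cre, with 3 of 6 tested called higher. These were Klrd1, Klre1 and Gzma, and Gzma alone stood at 141 and 146 CPM in WT and 295 and 201 CPM in Setd2-CD4 cre. Cd8a, Cd8b1 and Eomes overlapped between genotypes and were not called, with log2 fold changes of 0.22, 0.76 and -0.32. Klrb1c and Ncr1 did not pass the filter on low counts. The 7 gamma-delta T cell genes summed to 19.3 and 14.98 CPM in WT and 37.9 and 48.5 CPM in Setd2-CD4 cre (2 of 6 called higher). Those called were Cd163l1 and 5830411N06Rik. The receptor constant genes were not called, with log2 fold changes of 0.07 for Trdc, 0.82 for Tcrg-C1, -0.69 for Tcrg-C2 and -0.99 for Tcrg-C4. The 8 dendritic cell genes summed to 84.7 and 80.2 CPM in WT and 245 and 160.3 CPM in Setd2-CD4 cre (3 of 5 called higher). The called genes were Flt3, H2-Ab1 and Cd74, with log2 fold changes of 2.28, 1.15 and 1.55. H2-Ab1 and Cd74 are also B cell genes. Zbtb46 (0.69, overlapping between genotypes) and Itgax (-0.56, without overlap) were not called. Siglech stood at 0 in all libraries and Xcr1 and Clec9a at 0 in 3 of 4. The 8 macrophage genes summed to 24.5 and 27.001 CPM in WT and 21.6 and 23.9 CPM in Setd2-CD4 cre, the 6 neutrophil genes to 4.72 and 4.03 CPM in WT and 2.72 and 7.51 CPM in Setd2-CD4 cre, with Mpo and Elane at 0, and the 6 erythroid genes to 1.22 and 0.685 CPM in WT and 0.681 and 0.366 CPM in Setd2-CD4 cre. In RNA from a whole culture, fewer cells of a type and less RNA per cell cannot be told apart.

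Members of the receptor machinery differed in both directions. The CD3 chain genes Cd3g, Cd3e and Cd3d were lower in Setd2-CD4 cre libraries, as were Cd5, Themis, Rasgrp1 and the attenuator Ubash3b. The costimulatory receptors Icos and Cd28, the kinases Tec and Zap70, the adaptors Sh2d2a and Nck2, and the attenuators Ptpn22 and Cblb were higher. So were the effectors Vav3, Plcg1, Prkcq and Bcl10. By edgeR's quasi-likelihood test with Benjamini-Hochberg adjustment over 12927 genes, 12 of 44 members rose and 7 fell, and 25 did not pass. The 19 calls were 43.2% of the members, against 30.7% of all genes tested. Over all genes tested, 16.2% rose and 14.5% fell, against 27.3% and 15.9% of the members. The groups did not overlap for 32 members (72.7%), against 70.7% of all genes. The median log2 fold change was 0.05 over the members and -0.01 over all genes. Changes were mostly small: 1 member, Sh2d2a, moved by at least 1 on the log2 scale (2.27% of members, against 14.4% of all genes), and 32 of 44 lay within 0.5 of zero.

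The direction of the counts depended on how libraries were scaled. With upper-quartile factors 10 members rose and 12 fell, and with library totals 9 rose and 12 fell. Those scalings put the median of all genes at -0.12 and -0.16, so they lower every log2 fold change by about the same amount. Values per gene below are TMM-scaled CPM, that is counts brought to a common library size after composition scaling, and a positive log2 fold change means higher in Setd2-CD4 cre. The B cell marker sum was larger in Setd2-CD4 cre 22 than in 24. The part of other cell types in the changes of the members was not tested.

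**Figure D1:**
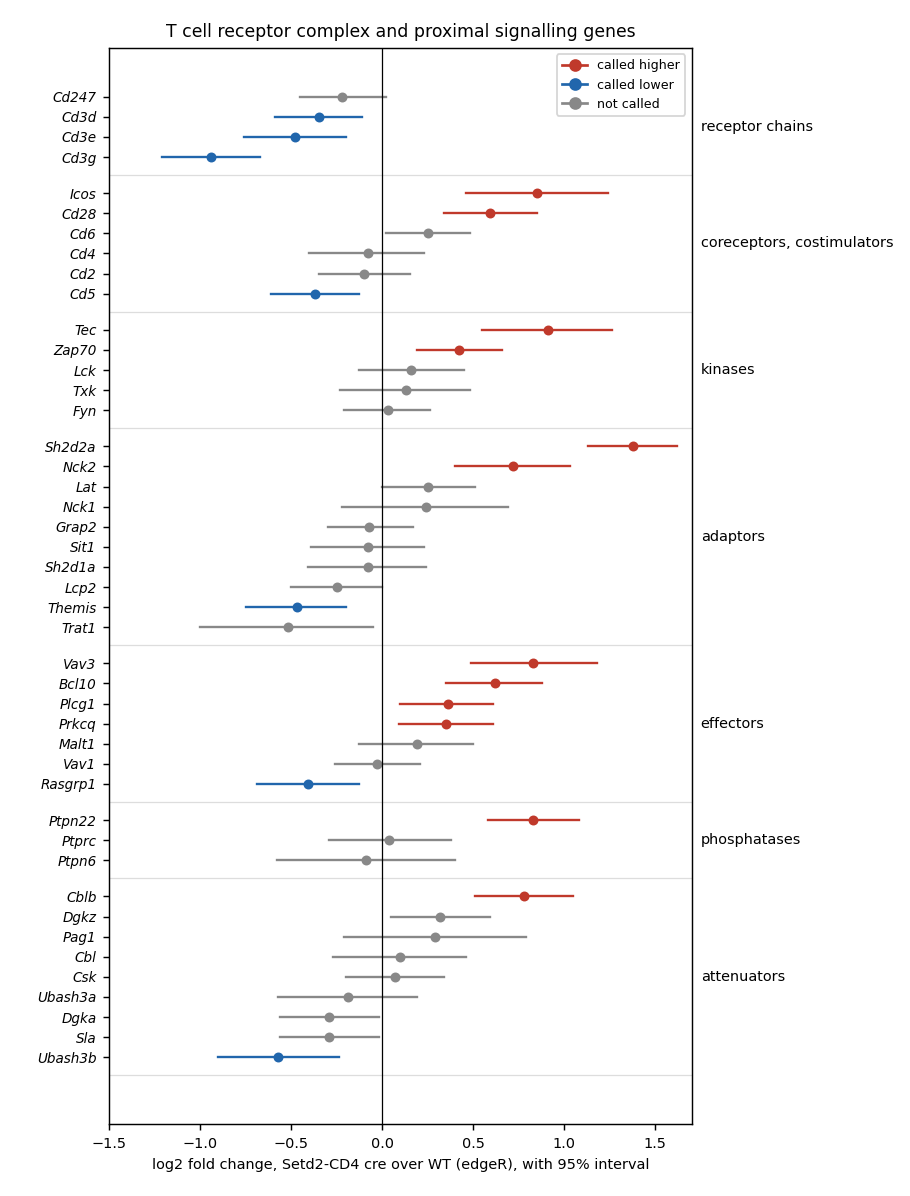
Log2 fold changes (x axis, Setd2-CD4 cre over WT, edgeR) of the 44 members by role, with bars for the 95% interval from 2 libraries a group, red for members called higher, blue for members called lower and grey for the rest. All 4 receptor chains lie left of zero and 3 of them are blue, from -0.35 for Cd3d to -0.94 for Cd3g, and Sh2d2a lies furthest right at 1.38.

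The CD3 chains were the class with the largest share of falls, 3 of 4 (75.0%), against 14.5% of all genes tested. The class median log2 fold change was -0.41. Cd3g, the gamma chain that also carries a dileucine signal for receptor internalization, stood at 394 and 337 CPM in libraries 13 and 15 of WT, against 188 and 192 CPM in 22 and 24 of Setd2-CD4 cre. Every Setd2-CD4 cre library was below every WT library, and the difference was larger than the spread within either genotype. Its mean went from 366 ± 40.3 to 190.3 ± 2.52 CPM (SD, n = 2 each), 1.92-fold lower, with a log2 fold change of -0.94 (SE 0.12, adjusted p = 0.00173 by edgeR). Cd3e, the epsilon chain that pairs with both gamma and delta, stood at 294 and 247 CPM in libraries 13 and 15 of WT, against 202 and 187 CPM in 22 and 24 of Setd2-CD4 cre. WT 13 was the highest of the 4 and the groups did not overlap, with -0.48 (SE 0.12, adjusted p = 0.0224 by edgeR). Cd3d, the delta chain, stood at 369 and 355 CPM in libraries 13 and 15 of WT, against 280.3 and 289 CPM in 22 and 24 of Setd2-CD4 cre, again without overlap, with -0.35 (SE 0.10, adjusted p = 0.0365 by edgeR). Cd247 stood at 339 and 328 CPM in libraries 13 and 15 of WT, against 287 and 286 CPM in 22 and 24 of Setd2-CD4 cre. Its groups did not overlap either, yet its log2 fold change of -0.22 (95% interval -0.45 to 0.02, adjusted p = 0.136 by edgeR) missed the threshold. Exons of Cd247 share 3007 bases with Pou2f1 on the opposite strand (1418 to 1840 counts), and whether strand was used in counting is not given, so the Cd247 value is uncertain.

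**Figure D2:**
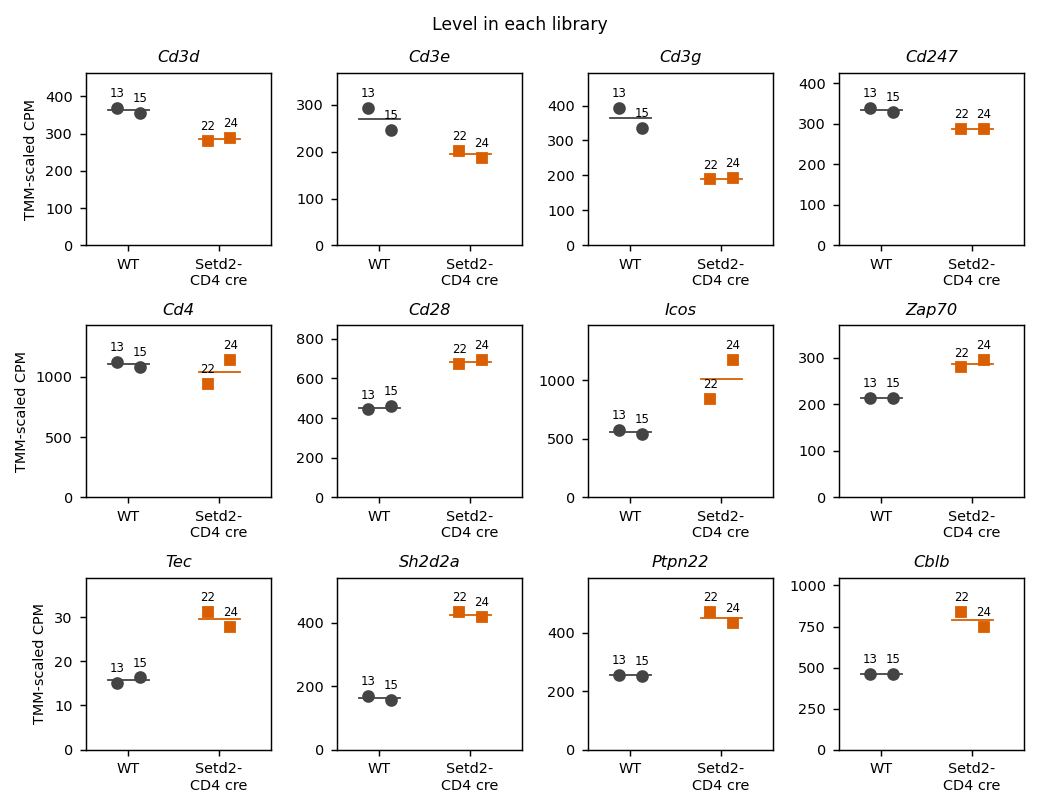
Level of 12 members in each library as TMM-scaled CPM (y axis from 0), with circles for WT 13 and 15, squares for Setd2-CD4 cre 22 and 24, numbers for the library and lines for the mean of the group. The 3 CD3 genes on chromosome 9 lie lower in both Setd2-CD4 cre libraries, Cd4 overlaps between genotypes, and the other panels from Cd28 to Cblb lie higher.

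The 4 chains did not fall in proportion. Ratios were taken within each library on the FPKM scale (per gene length and library total), which removes differences in the number of T cells shared by the chains. Cd3g over Cd3e was 1.44 and 1.47 in libraries 13 and 15 of WT, against 1.01 and 1.10 in 22 and 24 of Setd2-CD4 cre. The ratio was lower in both Setd2-CD4 cre libraries, and the gap was larger than the spread within a genotype. Cd3g over Cd3d was 1.06 and 0.940 in libraries 13 and 15 of WT, against 0.667 and 0.660 in 22 and 24 of Setd2-CD4 cre. The order of the groups was the same, whereas Cd3e over Cd3d overlapped between genotypes (0.734 and 0.640 in libraries 13 and 15 of WT, against 0.663 and 0.599 in 22 and 24 of Setd2-CD4 cre). Cd3g made up 35.98% and 34.5% of the summed FPKM of the 4 chains in the WT libraries and 26.7% and 27.3% in Setd2-CD4 cre. The lengths behind the FPKM values lay over 1% away from the GENCODE M21 exon length for all 44 members. The gaps were far larger for the chains: 1334 bases against 3269 for Cd3g and 1435 against 4080 for Cd3e. Cd3d had 1323 against 1815 and Cd247 had 8265 against 5329. Shares between genes therefore depend on gene models that are not given, while the shift of a ratio between libraries does not.

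**Figure D3:**
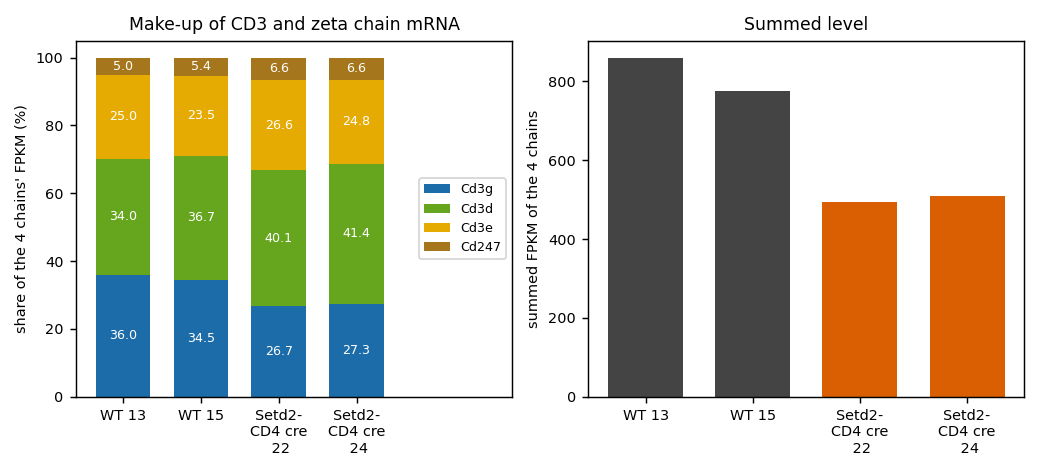
Left, share (%) of each chain in the summed FPKM of Cd3g, Cd3d, Cd3e and Cd247 in each library. Right, that sum in FPKM, which was 860.4 and 776 in the WT libraries and 493 and 508 in Setd2-CD4 cre, on a scale where the median of all genes is also lower in Setd2-CD4 cre.

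Ratios of Cd3e to other T cell genes were also taken within each library. They rest on the same counts as the fold changes and are not a separate test. Cd3e over Trac, the constant region gene of the alpha chain, overlapped between genotypes (0.429 and 0.381 in libraries 13 and 15 of WT, against 0.480 and 0.393 in 22 and 24 of Setd2-CD4 cre). Cd3e over Zap70 was 4.01 and 3.36 in libraries 13 and 15 of WT, against 2.11 and 1.85 in 22 and 24 of Setd2-CD4 cre. Cd3e over Lck was 1.79 and 1.46 in libraries 13 and 15 of WT, against 0.993 and 1.10 in 22 and 24 of Setd2-CD4 cre. Cd3e over Cd28 was 3.14 and 2.53 in libraries 13 and 15 of WT, against 1.42 and 1.28 in 22 and 24 of Setd2-CD4 cre. In each of these last 3 ratios both Setd2-CD4 cre values were below both WT values. Cd3e over Cd4 had the same order with a narrower gap (0.908 and 0.788 in libraries 13 and 15 of WT, against 0.742 and 0.569 in 22 and 24 of Setd2-CD4 cre).

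Of the 6 coreceptors and costimulators, 2 rose (33.3%) and 1 fell (16.7%), against 16.2% and 14.5% of all genes tested. Icos, an inducible costimulator of the CD28 family, stood at 576 and 543 CPM in libraries 13 and 15 of WT, against 845 and 1175 CPM in 22 and 24 of Setd2-CD4 cre. Both Setd2-CD4 cre libraries were above both WT libraries, but they differed from each other by more than the WT libraries did, and the log2 fold change of 0.85 (SE 0.17, adjusted p = 0.00931 by edgeR) was 0.60 without library 24 and 1.08 without library 22. Cd28, which gives the main costimulatory signal to naive T cells, stood at 444 and 462 CPM in libraries 13 and 15 of WT, against 673 and 693 CPM in 22 and 24 of Setd2-CD4 cre, 1.51-fold higher, with 0.59 (SE 0.11, adjusted p = 0.00721 by edgeR). Cd28 and Icos lie 204.6 kb apart on chromosome 1 on the same strand. Cd5, an inhibitory receptor whose level follows receptor signal strength in thymocytes, stood at 318 and 296 CPM in libraries 13 and 15 of WT, against 234 and 242 CPM in 22 and 24 of Setd2-CD4 cre and fell (-0.37 (SE 0.10, adjusted p = 0.0316 by edgeR)). Its neighbour Cd6, 50.4 kb away on chromosome 19 and of the same scavenger receptor family, stood at 259 and 262 CPM in libraries 13 and 15 of WT, against 306 and 313 CPM in 22 and 24 of Setd2-CD4 cre, above WT in both libraries without passing (0.25 (95% interval 0.02 to 0.48, adjusted p = 0.0944 by edgeR)). Cd5 over Cd6 within libraries was 3.61 and 3.33 in libraries 13 and 15 of WT, against 2.25 and 2.27 in 22 and 24 of Setd2-CD4 cre.

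Cd4, the coreceptor that binds MHC class II and carries Lck, stood at 1119.8 and 1082 CPM in libraries 13 and 15 of WT, against 939 and 1138 CPM in 22 and 24 of Setd2-CD4 cre. The groups overlapped, with a log2 fold change of -0.08 (95% interval -0.40 to 0.23, adjusted p = 0.665 by edgeR). Cd2, an adhesion receptor, had -0.10 (95% interval -0.35 to 0.15, adjusted p = 0.504 by edgeR).

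Of the 5 kinases, Tec and Zap70 rose (40.0%, against 16.2% of all genes tested). Zap70, which docks on phosphorylated CD3 and zeta chains, stood at 214 and 214 CPM in libraries 13 and 15 of WT, against 279 and 295 CPM in 22 and 24 of Setd2-CD4 cre, with the groups apart by more than their spread and 0.42 (SE 0.10, adjusted p = 0.0179 by edgeR). It missed the threshold with library totals (0.27, adjusted p = 0.0843). Tec, a cytoplasmic tyrosine kinase, stood at 15.1 and 16.4 CPM in libraries 13 and 15 of WT, against 31.1 and 27.8 CPM in 22 and 24 of Setd2-CD4 cre, 1.88-fold higher (0.91 (SE 0.15, adjusted p = 0.00511 by edgeR)), and B cells also express it. Txk, another member of the Tec family, lies 2938 bases from Tec on chromosome 5. It stood at 145 and 120.5 CPM in libraries 13 and 15 of WT, against 126 and 163 CPM in 22 and 24 of Setd2-CD4 cre and overlapped between genotypes (0.13 (95% interval -0.23 to 0.48, adjusted p = 0.561 by edgeR)). Lck, the kinase that starts the cascade, stood at 539 and 555 CPM in libraries 13 and 15 of WT, against 665 and 559 CPM in 22 and 24 of Setd2-CD4 cre. The Setd2-CD4 cre libraries lay slightly above WT, by less than their own spread, with 0.16 (95% interval -0.13 to 0.45, adjusted p = 0.355 by edgeR). Fyn, its relative, stood at 227 and 234 CPM in libraries 13 and 15 of WT, against 237 and 232 CPM in 22 and 24 of Setd2-CD4 cre and overlapped (0.03 (95% interval -0.21 to 0.26, adjusted p = 0.862 by edgeR)).

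Among 10 adaptors, Sh2d2a and Nck2 rose and Themis fell. Sh2d2a encodes TSAd, an SH2-domain adaptor that binds Lck and is induced by T cell activation. It stood at 170.1 and 158 CPM in libraries 13 and 15 of WT, against 434 and 418 CPM in 22 and 24 of Setd2-CD4 cre. Both Setd2-CD4 cre libraries were over 2-fold above both WT libraries, and each genotype's libraries lay close together. The mean went from 164 ± 8.61 to 426 ± 11.1 CPM (SD, n = 2 each), 2.60-fold higher, with 1.38 (SE 0.11, adjusted p = 0.000695 by edgeR). Sh2d2a over Lck within libraries was 0.196 and 0.177 in libraries 13 and 15 of WT, against 0.405 and 0.465 in 22 and 24 of Setd2-CD4 cre. Nck2, an adaptor between the receptor and the actin cytoskeleton, stood at 34.96 and 31.3 CPM in libraries 13 and 15 of WT, against 57.7 and 51.2 CPM in 22 and 24 of Setd2-CD4 cre and rose (0.72 (SE 0.14, adjusted p = 0.00822 by edgeR)). Its relative Nck1 stood at 48.5 and 41.7 CPM in libraries 13 and 15 of WT, against 63.2 and 43.1 CPM in 22 and 24 of Setd2-CD4 cre and overlapped (0.24 (95% interval -0.22 to 0.69, adjusted p = 0.381 by edgeR)). Themis, a T cell protein required for thymocyte selection, stood at 180.4 and 204 CPM in libraries 13 and 15 of WT, against 128 and 148 CPM in 22 and 24 of Setd2-CD4 cre and fell (-0.47 (SE 0.12, adjusted p = 0.0223 by edgeR)).

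Neither scaffold at the centre of the cascade passed the test. Lat, the membrane scaffold phosphorylated by Zap70, stood at 266 and 249 CPM in libraries 13 and 15 of WT, against 325 and 289 CPM in 22 and 24 of Setd2-CD4 cre, with 0.25 (95% interval -0.00 to 0.51, adjusted p = 0.117 by edgeR). Lcp2 stood at 273 and 281 CPM in libraries 13 and 15 of WT, against 219.8 and 245 CPM in 22 and 24 of Setd2-CD4 cre, with -0.25 (95% interval -0.50 to -0.00, adjusted p = 0.11 by edgeR). In both genes the groups did not overlap, in opposite directions, and Lat over Lcp2 within libraries was 1.39 and 1.26 in libraries 13 and 15 of WT, against 2.10 and 1.68 in 22 and 24 of Setd2-CD4 cre. Lcp2 passed as lower with library totals (-0.40, edgeR adjusted p = 0.0321). The other adaptors that did not pass were Grap2 (Gads, -0.07), which joins Lat to Lcp2, Trat1 (-0.52), Sit1 (-0.08) and Sh2d1a (SAP, -0.08), which serves the SLAM receptors, with edgeR adjusted p-values of 0.0856 to 0.681.

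Of the 7 effectors, 4 rose (57.1%) and 1 fell (14.3%), against 16.2% and 14.5% of all genes tested. Among the member classes, which held only 3 to 10 genes, this was the largest share of rises. Vav3, a guanine nucleotide exchange factor for small GTPases such as Rac that is also used in B cells, stood at 17.1 and 18.4 CPM in libraries 13 and 15 of WT, against 29.7 and 33.7 CPM in 22 and 24 of Setd2-CD4 cre and rose (0.83 (SE 0.15, adjusted p = 0.00647 by edgeR)). Vav1, the main family member in T cells, stood at 158 and 152 CPM in libraries 13 and 15 of WT, against 152 and 153 CPM in 22 and 24 of Setd2-CD4 cre and overlapped (-0.03 (95% interval -0.26 to 0.21, adjusted p = 0.861 by edgeR)). Prkcq, protein kinase C theta, stood at 169 and 158 CPM in libraries 13 and 15 of WT, against 223 and 195 CPM in 22 and 24 of Setd2-CD4 cre, with 0.35 (SE 0.11, adjusted p = 0.0492 by edgeR), and DESeq2 gave 0.36 with an adjusted p of 0.0528. Bcl10 links protein kinase C to NF-kappaB. It stood at 56.5 and 54.3 CPM in libraries 13 and 15 of WT, against 87.8 and 82.1 CPM in 22 and 24 of Setd2-CD4 cre and rose (0.62 (SE 0.11, adjusted p = 0.00716 by edgeR)). Malt1, its partner and a protease, stood at 1219.7 and 1348 CPM in libraries 13 and 15 of WT, against 1362 and 1559 CPM in 22 and 24 of Setd2-CD4 cre, without overlap, but did not pass (0.19 (95% interval -0.13 to 0.50, adjusted p = 0.324 by edgeR)).

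Plcg1 encodes the phospholipase that makes diacylglycerol and inositol trisphosphate. It stood at 450.1 and 422 CPM in libraries 13 and 15 of WT, against 548 and 568 CPM in 22 and 24 of Setd2-CD4 cre and rose by 1.28-fold (0.36 (SE 0.11, adjusted p = 0.0421 by edgeR)). Rasgrp1, the Ras exchange factor that diacylglycerol recruits, stood at 310.1 and 290.4 CPM in libraries 13 and 15 of WT, against 206 and 247 CPM in 22 and 24 of Setd2-CD4 cre and fell (-0.41 (SE 0.12, adjusted p = 0.0381 by edgeR)). The calls of Plcg1 and Prkcq were lost with upper-quartile factors (edgeR adjusted p = 0.114 and 0.133). Exons of Plcg1 share 379 bases with Zhx3 on the opposite strand, which had 114 to 285 counts.

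Among phosphatases, Ptpn22, which removes activating phosphates from Lck and Zap70, stood at 256 and 252 CPM in libraries 13 and 15 of WT, against 471 and 433 CPM in 22 and 24 of Setd2-CD4 cre. The Setd2-CD4 cre libraries were above WT by more than the spread within either genotype, 1.78-fold (0.83 (SE 0.11, adjusted p = 0.00201 by edgeR)). Ptprc (CD45), which primes Lck, stood at 1654 and 1476 CPM in libraries 13 and 15 of WT, against 1473 and 1748 CPM in 22 and 24 of Setd2-CD4 cre and overlapped (0.04 (95% interval -0.29 to 0.38, adjusted p = 0.846 by edgeR)). Ptpn6 (SHP-1) stood at 204 and 178 CPM in libraries 13 and 15 of WT, against 216 and 142 CPM in 22 and 24 of Setd2-CD4 cre, where library 22 was the highest of the 4 and library 24 the lowest (-0.09 (95% interval -0.58 to 0.40, adjusted p = 0.756 by edgeR)).

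Of 9 further attenuators, 1 rose and 1 fell (11.1% each), against 16.2% and 14.5% of all genes tested. Cblb, a ubiquitin ligase that sets the need for costimulation, stood at 459 and 463 CPM in libraries 13 and 15 of WT, against 838 and 747 CPM in 22 and 24 of Setd2-CD4 cre, 1.72-fold higher (0.78 (SE 0.12, adjusted p = 0.00343 by edgeR)). Its relative Cbl stood at 334 and 328 CPM in libraries 13 and 15 of WT, against 297 and 411 CPM in 22 and 24 of Setd2-CD4 cre and overlapped (0.10 (95% interval -0.27 to 0.46, adjusted p = 0.663 by edgeR)), and Cblb over Cbl within libraries was 3.84 and 3.94 in libraries 13 and 15 of WT, against 7.87 and 5.07 in 22 and 24 of Setd2-CD4 cre. Ubash3b (Sts-1), a phosphatase that acts on Zap70, stood at 39.1 and 40.7 CPM in libraries 13 and 15 of WT, against 24.8 and 28.9 CPM in 22 and 24 of Setd2-CD4 cre and fell (-0.57 (SE 0.14, adjusted p = 0.0218 by edgeR)). Ubash3a (Sts-2) stood at 58.04 and 53.8 CPM in libraries 13 and 15 of WT, against 41.4 and 56.3 CPM in 22 and 24 of Setd2-CD4 cre and overlapped (-0.19 (95% interval -0.57 to 0.19, adjusted p = 0.392 by edgeR)).

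The diacylglycerol kinases Dgka (-0.29 (95% interval -0.56 to -0.02, adjusted p = 0.0918 by edgeR)) and Dgkz (0.32 (95% interval 0.05 to 0.59, adjusted p = 0.0706 by edgeR)) had values of opposite sign without overlap between genotypes, and neither passed. Csk, the kinase that inhibits Lck, had 0.07 (95% interval -0.20 to 0.34, adjusted p = 0.686 by edgeR), and Pag1, its membrane anchor, had 0.29 (95% interval -0.21 to 0.79, adjusted p = 0.32 by edgeR). Sla, an adaptor that promotes loss of receptor from the surface, had -0.29 (95% interval -0.56 to -0.02, adjusted p = 0.0964 by edgeR).

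The calls of Cd3d and Cd3e were lost when either WT library was left out. So were those of Cd28, Cd5, Zap70, Themis, Bcl10, Plcg1, Prkcq, Rasgrp1 and Ubash3b. Those of Icos and Nck2 were lost without WT 15, and that of Vav3 without WT 13. Over all genes, calls also became fewer without WT 13 and without WT 15. Under 13 alternatives, made of 9 other settings and the 4 fits that each left out 1 library, 5 of the 19 calls held every time: Cd3g, Sh2d2a, Tec, Ptpn22 and Cblb. Cd3g ranged from -1.05 to -0.83 when a library was left out and Sh2d2a from 1.32 to 1.43. Without WT 13, 6 members rose and 1 fell, and without WT 15, 5 rose and 1 fell. Without Setd2-CD4 cre 24, 17 rose and 13 fell. Cd3e had -0.35 without WT 13 (adjusted p = 0.234) and -0.60 without WT 15 (0.0561), and Cd3d had -0.33 (0.272) and -0.38 (0.214), by edgeR. A fit with 1 library in a group takes its spread from the other group. Replicates differed more in Setd2-CD4 cre than in WT, with a chi-square per gene between their counts of 18.59 against 8.77. The sign of all 19 called members was the same under the 13 alternatives.

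**Figure D4:**
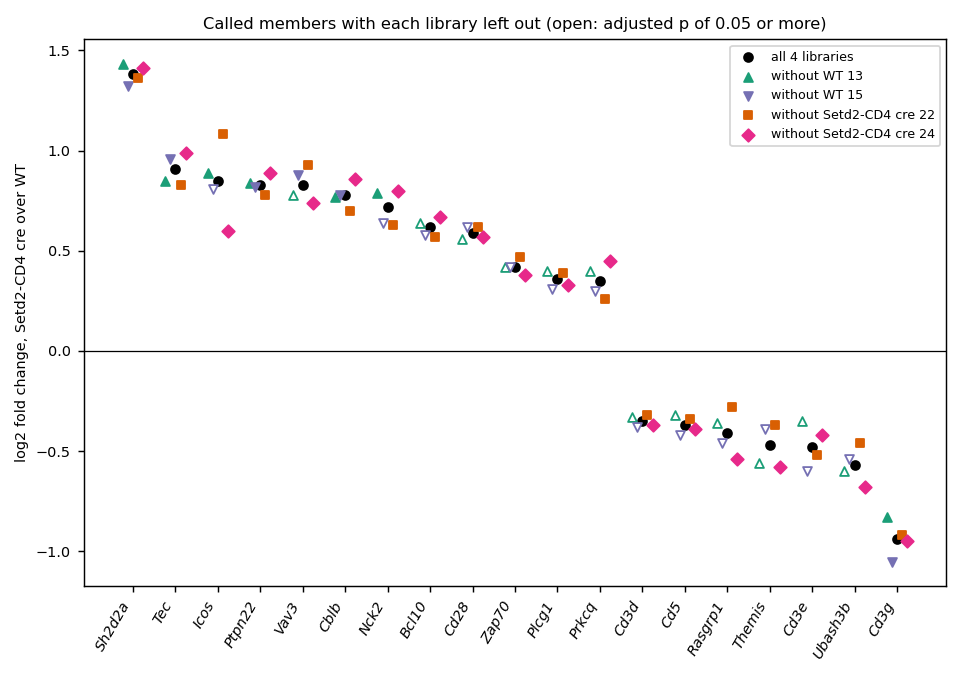
Log2 fold changes (y axis, Setd2-CD4 cre over WT, edgeR) of the 19 called members with all 4 libraries and with each left out, filled where the adjusted p is below 0.05 and open otherwise. No point crosses zero, and open points appear only without WT 13 or WT 15.

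The wider pathway also held rises and falls. From a list of 81 other genes of T cell receptor signalling, 80 were tested, 14 rose (17.5%) and 12 fell (15.0%), shares near those of all genes (16.2% and 14.5%), with a median log2 fold change of 0.10. Trac, the alpha constant region, stood at 497 and 470.04 CPM in libraries 13 and 15 of WT, against 305 and 346 CPM in 22 and 24 of Setd2-CD4 cre and fell (-0.57 (SE 0.12, adjusted p = 0.00982 by edgeR)). Trbc2, a beta constant region, stood at 295 and 278 CPM in libraries 13 and 15 of WT, against 246 and 238 CPM in 22 and 24 of Setd2-CD4 cre, below WT in both libraries without passing (-0.25 (95% interval -0.48 to -0.01, adjusted p = 0.103 by edgeR)). Trbc1 stood at 113 and 112 CPM in libraries 13 and 15 of WT, against 169 and 81.4 CPM in 22 and 24 of Setd2-CD4 cre and overlapped (0.15 (95% interval -0.93 to 1.23, adjusted p = 0.796 by edgeR)). Trbc1 and Trbc2 are near-identical copies whose reads may have been split between them.

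Of the 14 rises in that list, the largest were Itpr1, a calcium channel gene of the endoplasmic reticulum, at 0.91, Dgke, a diacylglycerol kinase, at 0.88, Tespa1, an adaptor of thymocyte selection, at 0.82, and Gab2, an adaptor for phosphatidylinositol 3-kinase and SHP-2, at 0.80, with edgeR adjusted p-values of 0.00179, 0.0141, 0.0212 and 0.0159. Sos2, a Ras exchange factor, rose (0.74 (SE 0.11, adjusted p = 0.00307 by edgeR)). Large falls in that list included Akt1, the kinase downstream of phosphatidylinositol 3-kinase (-0.73 (SE 0.12, adjusted p = 0.0043 by edgeR)), Ptpn7, a phosphatase of MAP kinases (-0.71 (SE 0.11, adjusted p = 0.00419 by edgeR)), Ikbkg, the regulatory subunit of the IKK complex (-0.69 (SE 0.14, adjusted p = 0.0106 by edgeR)), and Dock2, a Rac exchange factor (-0.64 (SE 0.14, adjusted p = 0.0136 by edgeR)). In the attenuator class 6 of 16 rose (37.5%) and 2 fell (12.5%), against 16.2% and 14.5% of all genes tested. This class was picked from several in the list, and of the 9 negative regulators among the members 1 rose and 1 fell.

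On the FPKM scale, whose lengths limit comparison between genes as noted above, the highest members in WT were Cd3d (289 ± 5.97 FPKM, SD, n = 2), Cd3g (288 ± 29.8), Malt1 (267 ± 20.8), Dgka (264 ± 9.33) and Cd4 (234 ± 4.003). Of the neighbours in this order, Dgka and Cd4 differed beyond their spread and the others did not. The order depends on the lengths used, which for Malt1 was 5073 bases against 18040 in GENCODE M21. In Setd2-CD4 cre the highest were Malt1 (273 ± 32.3 FPKM, SD, n = 2), Icos (273 ± 69.3), Cd3d (204 ± 8.90), Cd4 (199 ± 31.5) and Dgka (194 ± 17.1), while Cd3g stood at 135 ± 4.89. Malt1 and Icos did not differ beyond their spread, nor did Cd3d, Cd4 and Dgka, and both Icos values were above both Cd3d values. The lowest in WT were Vav3 (2.04 ± 0.117 FPKM) and Tec (2.49 ± 0.159). The lowest in Setd2-CD4 cre were Ubash3b (3.03 ± 0.397 FPKM) and Vav3 (3.27 ± 0.368), which did not differ beyond their spread.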

How the data were processed

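RNA sequencing of 2 WT and 2 Setd2-CD4 cre libraries was taken from 1 deposited table of 34745 genes. The authors deposited whole-number read counts and FPKM values per gene, per the file headers; Bowtie2, RSEM, GRCm38.p6 and mm10 are named in the submitters' processing notes. Rounding, gene models, strand use and the treatment of shared reads are not stated there. The deposited FPKM equalled the count over 1 length per gene and the library's total, within 0.0674%. Groups and replicate numbers came from sample titles; one title (15) differs from its cell type label.

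Counts were tested with edgeR 4.0.16 in R 4.3.3 (TMM, filterByExpr by group, robust quasi-likelihood fit, Benjamini-Hochberg adjustment over 12927 genes, threshold 0.05). SE is the log2 fold change over the square root of F, and intervals are 95%. Alternatives used DESeq2 1.42.0, limma 3.58.1 (voom, and trend on log2(FPKM + 1) or log2(FPKM + 0.1)), other scalings, no filter, a non-robust fit and each library left out. An exact permutation test of 2 against 2 cannot go below 0.333. The members and lists were chosen with earlier results of these data known. Values per library are given for every called member and fixed core members, and for Trac, Trbc1 and Trbc2 of the wider list. The 6 largest rises and falls of that list were selected, and those reported have log2 fold changes without values per library. Carmil2 was matched as Rltpr, and Rnf128 did not pass the filter. Some genes are not reported here. Sequences are from RefSeq (GRCm38.p6). No per-sample column was left unused.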

Additional observations from a re-analysis of the deposited data

How the results depend on the processing

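Over all 13 alternatives the sign of the 19 called members held, 14 of them lost the call under at least 1, and 31 values changed sign, all in members that did not pass. Leaving out 1 library each moved the number of members higher from 12 to 5 to 18 and lower from 7 to 1 to 13, other pathway genes higher from 14 to 4 to 26 and lower from 12 to 2 to 18, and all genes higher from 2094 to 718 to 3068 and lower from 1880 to 564 to 2903. Members lower numbered 12 with upper-quartile factors, 12 with library totals, and 11 and 11 by limma-trend on log2(FPKM + 1) and log2(FPKM + 0.1). Library totals gave 2879 genes lower, and the 2 FPKM fits gave 1267 and 1269 genes and 9 and 9 other pathway genes higher. FPKM is scaled to library totals, and these scalings put the median of all genes at -0.12 to -0.16, against -0.01 in the main fit. The split of calls moved with them, from 63.2% of called members higher to 45.5% (upper-quartile), 42.9% (totals) and 45.0% (FPKM), from 53.8% of other pathway genes to 40.7%, 35.7% and 34.6%, and from 52.7% of all genes to 37.4%, 32.9% and 31.6 to 32.2%.

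Signs that changed were those of Fyn (-0.09 upper-quartile, -0.13 totals, -0.12 and -0.12 FPKM), Csk (-0.04, -0.09, -0.09 and -0.09 likewise), Ptprc (-0.07, -0.11, -0.11 and -0.11), Cbl (-0.01, -0.05, -0.07 and -0.07) and Txk (-0.02 totals, -0.03 and -0.03 FPKM). With each library left out in turn, the log2 fold change ran over zero for Cbl (-0.15 to 0.32), Cd4 (-0.23 to 0.06), Csk (-0.05 to 0.18), Nck1 (-0.06 to 0.49), Pag1 (-0.06 to 0.58), Ptpn6 (-0.42 to 0.18), Ptprc (-0.08 to 0.17), Txk (-0.07 to 0.31) and Ubash3a (-0.43 to 0.02). The cause of the changes with single libraries was not tested. No paired analysis was possible because the genotypes share no replicate number. Members had at least 87 counts per library, and the parts of counting error and of the spread between the 2 libraries of a group in the SE were not separated.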

Other observations

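Several members have a relative that does the same step in B cell receptor signalling. The 8 genes listed for that pathway, which include such relatives and also Bank1 and Pik3ap1, summed to 109 and 105 CPM in WT. In Setd2-CD4 cre they summed to 439 and 254 CPM, with 7 of 8 called higher (87.5%, against 16.2% of all genes tested). Syk, the counterpart of Zap70, stood at 16.4 and 16.1 CPM in libraries 13 and 15 of WT, against 130.5 and 68.05 CPM in 22 and 24 of Setd2-CD4 cre and rose (2.61 (SE 0.35, adjusted p = 0.00784 by edgeR)). Btk, a Tec-family kinase of B cells, stood at 0.838 and 0.380 CPM in libraries 13 and 15 of WT, against 11.5 and 6.14 CPM in 22 and 24 of Setd2-CD4 cre (3.83 (SE 0.50, adjusted p = 0.0021 by edgeR)), and Rasgrp3, the counterpart of Rasgrp1, at 1.07 and 0.608 CPM in libraries 13 and 15 of WT, against 15.96 and 8.79 CPM in 22 and 24 of Setd2-CD4 cre (3.87 (SE 0.43, adjusted p = 0.00146 by edgeR)). Plcg2, the counterpart of Plcg1, stood at 57.3 and 57.04 CPM in libraries 13 and 15 of WT, against 127 and 86.8 CPM in 22 and 24 of Setd2-CD4 cre and rose (0.90 (SE 0.18, adjusted p = 0.0103 by edgeR)). Blnk, the counterpart of Lcp2, stood at 2.67 and 0.913 CPM in libraries 13 and 15 of WT, against 40.4 and 11.4 CPM in 22 and 24 of Setd2-CD4 cre and did not pass (3.84 (95% interval 0.91 to 6.78, adjusted p = 0.0673 by edgeR)). All 5 were higher in library 22 than in library 24, as were the B cell markers, and their part in the changes of the T cell members was not tested.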
